A study of Mus musculus with 6 samples.

Results

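The 10 genes described here encode transcription factors of naive pluripotency, and they were chosen by name among the 12626 genes of the tables: *Nanog*, *Esrrb*, *Tfcp2l1*, *Klf2*, *Klf4*, *Klf5*, *Tbx3*, *Prdm14*, *Zfp42* and *Nr0b1*. Each of the 10 had a row of its own in all 6 samples. Their mRNA was followed by RNA-seq in the mouse ES cell line J1, which is wild-type (WT), while the culture was moved from serum to a medium known as 2i+vitC. D0 cells grew in serum medium. D6 and D13 cells had spent 6 and 13 days in a serum-free medium that held the Gsk3 inhibitor CT-99021 at 3 µM, the MEK inhibitor PD0325901 at 1 µM and vitamin C at 100 µg/mL. LIF, at 1000 U/mL, was present on all 3 days, and all cells were feeder-free on gelatin. Each day had 2 biological replicates, from this single line. Serum was withdrawn and the inhibitors and vitamin C were added together, so that their parts in any change cannot be told apart, and between D6 and D13 the labels differ in the time in the medium alone.

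Naive pluripotency is the state of the preimplantation epiblast, and mouse ES cells hold it through a network of transcription factors that bind each other's genes. LIF feeds this network through JAK and STAT3, while Gsk3 inhibition stabilizes β-catenin, which relieves repression by TCF7L1, and MEK inhibition blocks the FGF-ERK signal that pushes cells towards the primed epiblast. In serum with LIF, ES cell cultures are known to be mixed, with cells that hold high or low levels of several of these factors. The factors differ in kind: NANOG is a homeodomain protein, ESRRB an orphan nuclear receptor, TFCP2L1 a CP2-family factor downstream of LIF and STAT3, KLF2, KLF4 and KLF5 Krüppel-like zinc finger proteins, TBX3 a T-box factor, PRDM14 a PR-domain zinc finger protein that restrains FGF signalling and de novo DNA methylation, ZFP42 (REX1) a zinc finger protein related to YY1, and NR0B1 (DAX1) a nuclear receptor without a classical DNA-binding domain.

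On GRCm38, the build called mm10, GENCODE places *Nanog* at chr6:122707489-122714633, *Esrrb* at chr12:86361117-86521628, *Tfcp2l1* at chr1:118627945-118685168, *Klf2* at chr8:72319033-72321656, *Klf5* at chr14:99298691-99315036, *Tbx3* at chr5:119670669-119684724 and *Nr0b1* at chrX:86191764-86195947, all on the plus strand. *Klf4* lies at chr4:55527143-55532466, *Prdm14* at chr1:13113457-13127163 and *Zfp42* at chr8:43295063-43306980, all on the minus strand. All reads were counted over exons.

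The RefSeq promoter table of GRCm38.p6 held 7 of the 10 genes, and *Klf5*, *Tbx3* and *Prdm14* had no entry in it. The 250 bases before the start were searched on both strands for 6 short motifs that stand for inputs into the network: TTCNNNGAA for STAT factors, ATCAAAG for TCF/LEF, AAGGTCA for ESRR receptors, ATGCAAA for the octamer of POU factors, ACAATG for SOX factors and CCACNCCC for KLF factors. Among all 32851 windows of that length, 7.02%, 3.21%, 4.08%, 4.12%, 10.7% and 15.9% held these motifs, in the same order. The windows of a pair of factors that rose and a pair that did not pass the test are shown, 5′ to 3′ on the strand of the gene, with motif matches in capitals.
Nanog, first start, chr6:122707239-122707488, plus strand: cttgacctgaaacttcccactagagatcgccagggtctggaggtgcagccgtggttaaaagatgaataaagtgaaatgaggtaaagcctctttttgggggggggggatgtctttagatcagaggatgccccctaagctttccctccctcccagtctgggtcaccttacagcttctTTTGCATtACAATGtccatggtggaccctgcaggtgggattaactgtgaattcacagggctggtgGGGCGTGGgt
Tfcp2l1, chr1:118627695-118627944, plus strand: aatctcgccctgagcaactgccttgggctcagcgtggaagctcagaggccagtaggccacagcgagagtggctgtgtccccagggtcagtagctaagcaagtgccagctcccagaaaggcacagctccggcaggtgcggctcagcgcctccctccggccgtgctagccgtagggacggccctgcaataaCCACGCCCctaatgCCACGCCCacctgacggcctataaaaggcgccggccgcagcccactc
Esrrb, first start, chr12:86360867-86361116, plus strand: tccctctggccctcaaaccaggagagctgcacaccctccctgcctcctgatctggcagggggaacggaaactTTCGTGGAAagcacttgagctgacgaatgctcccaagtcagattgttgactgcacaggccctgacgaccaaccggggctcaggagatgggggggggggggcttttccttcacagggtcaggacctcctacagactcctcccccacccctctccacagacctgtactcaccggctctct
Zfp42, chr8:43307010-43307259, minus strand: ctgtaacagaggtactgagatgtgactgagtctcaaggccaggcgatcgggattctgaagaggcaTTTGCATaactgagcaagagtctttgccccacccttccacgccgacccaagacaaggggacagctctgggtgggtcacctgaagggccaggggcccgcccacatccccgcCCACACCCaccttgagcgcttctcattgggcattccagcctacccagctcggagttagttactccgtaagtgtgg
Positions are counted from the start, with -1 as the base just before it. In the *Nanog* window, the octamer began at -75, the SOX motif at -67 and the KLF motif at -10. The octamer and the SOX motif, a composite element long known at *Nanog*, were separated by a single base. *Tfcp2l1* had 2 KLF motifs, at -61 and -47. *Esrrb* had a STAT motif at -178, and *Zfp42* an octamer at -185 and a KLF motif at -75. No match was found in the windows of *Klf2*, *Klf4* and *Nr0b1* or at the second start of *Esrrb*, and no window of these 7 genes held the TCF/LEF or ESRR letters. A match is a description of letters, since binding was not measured.

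Each sample held between 73230745 and 83688345 reads on genes. The 10 factors themselves had between 570 and 109944 reads in a sample, and none was near the limit of detection. The median gene stood between 4.80 and 4.90 log2 CPM in every sample, where CPM is the read count scaled to library size by the authors. *Pou5f1* (OCT4), which defines pluripotent cells, was present in every sample, between 705.3 and 1164 CPM. Changes between days are given as log2 fold changes from limma, fitted on 12928 features, that is, the genes and 302 transposon families. A factor was called changed at an adjusted p under 0.05, and the stricter rule of the study also asks for more than a 4-fold difference. As these are bulk samples, fewer cells that express a factor and less RNA per cell cannot be told apart.

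From D0 to D6, 5 of 10 rose at the adjusted p alone, where 13.7% of all features did, and 4 of them, *Tbx3*, *Tfcp2l1*, *Prdm14* and *Nanog*, rose by over 4-fold, against 5.95% of all features. *Klf4*, the other factor that passed, rose by 3.78-fold. *Nanog*, *Klf4*, *Tbx3* and *Prdm14* had been singled out by the study on these same samples, for a peak at D6. Their direction at this step and the next is therefore not independent evidence. None of the 10 fell, against 10.2% of all features (0 factors at an unadjusted p under 0.05). The median log2 fold change was 1.55 over the 10 factors and -0.01 over all genes. Replicates of D0 lay below both replicates of D6 in 7 of 10 factors, against 34.0% of all features.

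**Figure D1:**
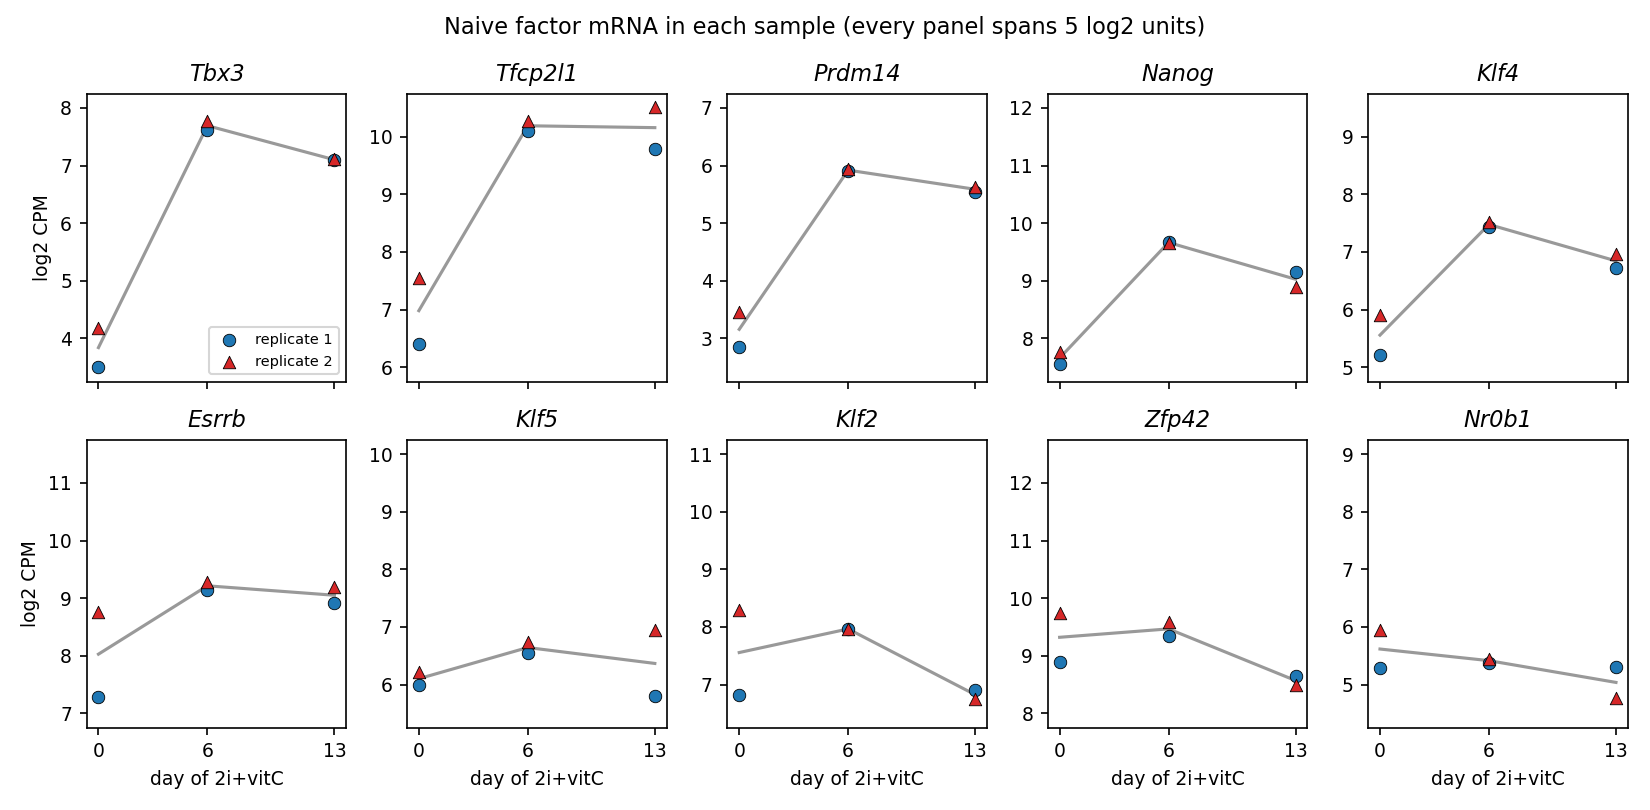
Level of each factor (log2 CPM) against the day of conversion. Circles are replicate 1, triangles are replicate 2, grey lines join the means of 2 samples, and each panel spans the same 5 log2 units at its own offset. The 5 factors with a called rise open the set, and the D0 replicates of *Esrrb* and *Klf2* are 1.48 and 1.47 log2 units apart.

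*Tbx3*, which helps to sustain self-renewal downstream of LIF, had the largest rise of the 10. With replicate 1 given first, its level was 3.51 and 4.18 log2 CPM at D0, 7.62 and 7.77 at D6, then 7.09 and 7.11 at D13. These values rest on 895 and 1577 reads at D0, 15479 and 18529 at D6, then 9757 and 10355 at D13. All 3 days were separate, with D6 highest and D13 in between. The rise from D0 to D6 was 3.85 (SE 0.26, limma adjusted p = 3.37e-05), or 14.4-fold, and at D13 the level was still 9.57-fold above D0 (log2 3.26, adjusted p = 4.83e-05). The step from D6 to D13 was -0.59 (SE 0.26) and did not pass (adjusted p = 0.196).

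*Tfcp2l1* was at 6.41 and 7.55 log2 CPM at D0, 10.10 and 10.28 at D6, then 9.80 and 10.52 at D13. Both D0 samples were low, and the D13 replicates lay on either side of the D6 replicates. The gene rose by 3.21 (SE 0.39, limma adjusted p = 0.000507), or 9.26-fold, by D6, and was 9.03-fold above D0 at D13 (log2 3.17, adjusted p = 0.000374). The difference between D6 and D13 was -0.04, with a 95% interval from -0.92 to 0.84, which spans nearly 2-fold either way. One small gene shares exon bases with *Tfcp2l1* on the same strand.

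*Prdm14* was the rarest of the 10 by reads at D0. It stood at 2.86 and 3.46 log2 CPM there, on 570 and 959 reads, at 5.91 and 5.93 at D6, and at 5.55 and 5.63 at D13. The 3 days did not overlap, and the replicates of D6 were 0.03 apart. *Prdm14* rose by 2.76 (SE 0.26, limma adjusted p = 0.00016), or 6.79-fold, and remained 5.39-fold above D0 at D13 (log2 2.43, adjusted p = 0.000195). The later step was -0.33 (SE 0.26, adjusted p = 0.465).

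*Nanog*, a central factor of the network, had 7.56 and 7.76 log2 CPM at D0, 9.66 in both replicates of D6, and 9.16 and 8.90 at D13. Its 3 days were again separate, with D13 in between. The rise to D6 was 2.00 (SE 0.22, limma adjusted p = 0.000294), or 4.01-fold, which sits on the 4-fold threshold. At D13 the level was 2.58-fold above D0 (log2 1.37, adjusted p = 0.00141). From D6 to D13 the difference was -0.64 with a 95% interval from -1.13 to -0.15, and it did not pass after adjustment (adjusted p = 0.12).

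*Klf4*, a direct target of STAT3 and one of the reprogramming factors, had 5.21 and 5.90 log2 CPM at D0, 7.43 and 7.53 at D6, then 6.72 and 6.97 at D13. The days were separate, in the order D0, D13, D6. The rise by D6 was 1.92 (SE 0.26, limma adjusted p = 0.00102), and *Klf4* was 2.44-fold above D0 at D13 (log2 1.29, adjusted p = 0.00488). The step from D6 to D13 was -0.63 (SE 0.26, adjusted p = 0.182).

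*Esrrb*, which can stand in for *Nanog* in part of its functions, was at 7.29 and 8.77 log2 CPM at D0, 9.15 and 9.28 at D6, then 8.91 and 9.19 at D13. Both D0 samples were below all samples in 2i+vitC, but replicate 1 was far lower than replicate 2. The mean difference from D0 to D6 was 1.19 (SE 0.41, limma adjusted p = 0.0714), and the D13 mean was 1.02 above D0 (adjusted p = 0.0769). Without D0 replicate 2 the first of these was 1.93 (adjusted p = 0.00286), and without D0 replicate 1 it was 0.45. The D6 and D13 levels overlapped, with a difference of -0.16 (95% interval from -1.11 to 0.78).

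Of the other Krüppel-like factors, neither *Klf2* nor *Klf5* passed the test at any step, and their difference from *Klf4* was not tested. *Klf2*, a factor that MEK-ERK signalling is known to destabilize as a protein, had 6.82 and 8.29 log2 CPM at D0, 7.97 in both replicates of D6, and 6.90 and 6.75 at D13. Replicate 1 of D0 was at the level of D13, and replicate 2 was above D6. The difference from D0 to D6 was 0.41 (SE 0.40, limma adjusted p = 0.522). It was 1.15 (adjusted p = 0.0132) without D0 replicate 2 and -0.33 without D0 replicate 1, so the replicate left out decided its direction.

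From D6 to D13, the *Klf2* difference was -1.14, or 2.21-fold lower, with a 95% interval from -2.06 to -0.22 (limma adjusted p = 0.131). It had the largest size of the 10 at this step. In a fit of the D6 and D13 samples alone, where the spread of D0 does not enter, the same difference had an SE of 0.18 and passed (adjusted p = 0.0324). Leaving out either D0 replicate leaves a lone D0 sample that adds no spread, so those fits (SE 0.18 in both) repeat this one. In all of them the spread of the gene comes from D6 and D13, and the D6 replicates were 0.002 apart.

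*Klf5* had 5.99 and 6.21 log2 CPM at D0, 6.55 and 6.73 at D6, then 5.79 and 6.94 at D13. The D0 and D6 samples were separate, while the D13 replicates lay below D0 and above D6. Neither the difference from D0 to D6 (0.54, SE 0.34, limma adjusted p = 0.304) nor that from D6 to D13 (-0.28, adjusted p = 0.659) passed the test. From D0 to D13 the difference was 0.27 (adjusted p = 0.562), and without D13 replicate 1 it was 0.84 (adjusted p = 0.0279).

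*Zfp42*, whose mRNA is a common marker of undifferentiated ES cells, was at 8.90 and 9.75 log2 CPM at D0, 9.34 and 9.60 at D6, then 8.64 and 8.50 at D13. The D6 samples lay between the D0 replicates, and D13 was below all other samples. The difference from D0 to D6 was 0.15 (limma adjusted p = 0.778). From D6 to D13 it was -0.90, with a 95% interval from -1.58 to -0.22 (adjusted p = 0.115), and from D0 to D13 -0.75 (adjusted p = 0.0721). Without D0 replicate 1 the latter was -1.18 (adjusted p = 0.0132).

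*Nr0b1*, which is known to restrain the activity of OCT4 and other nuclear factors, had 5.29 and 5.94 log2 CPM at D0, 5.38 and 5.45 at D6, then 5.31 and 4.77 at D13. Its days overlapped except D6 and D13, and it was the single factor with the highest mean at D0. The difference was -0.20 (limma adjusted p = 0.676) at the first step, -0.38 (adjusted p = 0.456) at the second, and -0.58 (95% interval from -1.24 to 0.08, adjusted p = 0.138) over the whole course.

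**Figure D2:**
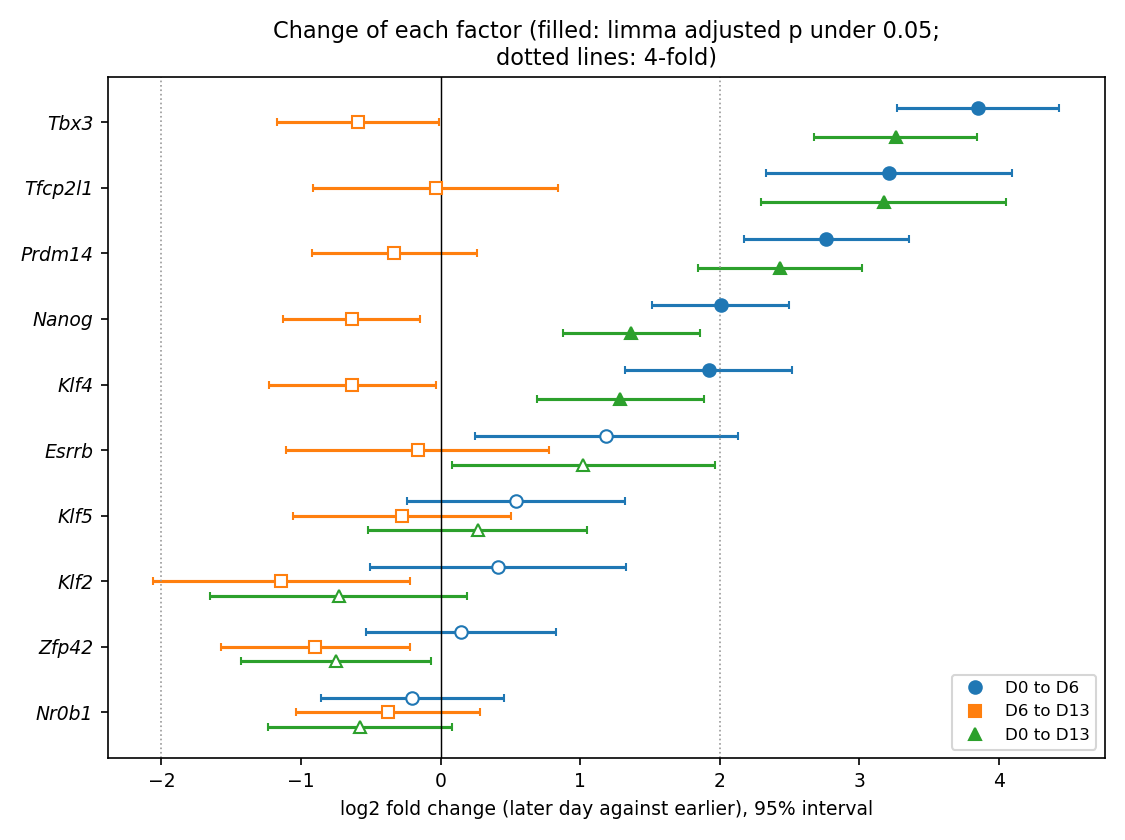
Log2 fold change of each factor between days, with 95% intervals from the limma fit of 6 samples. Filled symbols passed at an adjusted p under 0.05, and dotted lines mark 4-fold. The 5 factors with filled symbols lie right of zero, and every square for D6 to D13 is open, from -1.14 for *Klf2* to -0.04 for *Tfcp2l1*.

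For the second week, the question was whether the factors held their level, rose further or declined. On the log2 scale the mean was lower at D13 for all 10, and 49.0% of all genes had a positive difference at this step. *Tfcp2l1* was an exception on other scales, since its mean CPM was higher at D13 and its log2 difference was 0.02 after each sample was centred on its median gene. The median difference was -0.48 over the factors and -0.01 over all genes. Even so, limma called 0 of 10 lower, where it called 2.78% of all features, and 0 of 10 higher, where it called 1.39%. Voom weights and a fit without a trend also called 0 of 10 lower. At an unadjusted p under 0.05, 5 of 10 were lower and 0 higher: *Zfp42*, *Nanog*, *Klf2*, *Klf4* and *Tbx3*. Both D13 replicates lay below both D6 replicates in 7 of 10 factors, against 31.3% of all features, and the others were *Esrrb*, *Tfcp2l1* and *Klf5*. This step and the one before it share the D6 samples, so a high D6 value raises the first and lowers the second.

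At the end of the course, 5 of 10 factors were above D0 at the adjusted p alone, where 20.6% of all features were, and 3 of them, *Tbx3*, *Tfcp2l1* and *Prdm14*, by over 4-fold, where 7.39% were. None was lower, against 21.5% of all features, although *Zfp42* had an unadjusted p under 0.05. Both D13 replicates were above both D0 replicates in 6 of 10, against 33.7% of all features. In the 5 factors with a called rise, the part of the log2 rise that was still present at D13 was 98.9% for *Tfcp2l1*, 88.0% for *Prdm14*, 84.6% for *Tbx3*, 68.2% for *Nanog* and 67.1% for *Klf4*. On the CPM scale these shares were 100.4%, 75.8%, 63.7%, 52.7% and 51.6%. With each sample left out in turn, the log2 share ranged from 87.6% to 110.1% for *Tfcp2l1* and from 86.5% to 89.4% for *Prdm14*. The ranges were 83.0% to 86.3% for *Tbx3*, 61.7% to 74.6% for *Nanog* and 59.85% to 73.5% for *Klf4*. Differences between these shares were not tested.

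The D6 level was also set against the mean of D0 and D13, which a straight course would give, although a rise followed by a plateau lies above that mean too. It was higher in 5 of 10 factors, against 5.61% of all features. The study had reported a D6 peak of *Nanog*, *Klf4*, *Tbx3* and *Prdm14* mRNA on these same samples. For these factors, neither this result nor the highest day given below is independent evidence. The differences were 2.22 for *Tbx3* (limma adjusted p = 0.00152), 1.62 for *Tfcp2l1* (adjusted p = 0.0197), 1.55 for *Prdm14* (adjusted p = 0.0055), 1.32 for *Nanog* (adjusted p = 0.00509) and 1.27 for *Klf4* (adjusted p = 0.012). The other 5 ranged from 0.09 for *Nr0b1* to 0.78 for *Klf2*. This count depended on having both D6 replicates: it was 1 without D6 replicate 1 and 2 without D6 replicate 2. By log2 day means, 9 of 10 factors were highest at D6, as were 21.1% of all genes, and *Nr0b1* was highest at D0, as were 41.8%. By mean CPM, 8 of 10 were highest at D6 and *Tfcp2l1* was highest at D13.

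The replicates of D0 differed in a single direction. All 10 factors were higher in D0 replicate 2 than in replicate 1, by a median of 0.68 log2 units, where 54.6% of all genes were higher and the median gene differed by 0.06. The gap was 1.48 for *Esrrb*, 1.47 for *Klf2* and 1.14 for *Tfcp2l1*, and 3.59%, 3.69% and 7.37% of all genes had a gap at least as large in either direction. It was smallest for *Nanog* (0.20) and *Klf5* (0.22). The median gap was 0.12 at D6 and 0.05 at D13. Between the D6 replicates no factor differed by more than 0.26, while at D13 *Klf5* differed by 1.15, *Tfcp2l1* by 0.72 and *Nr0b1* by -0.54. The 10 factors share these libraries and so are not independent of each other.

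**Figure D3:**
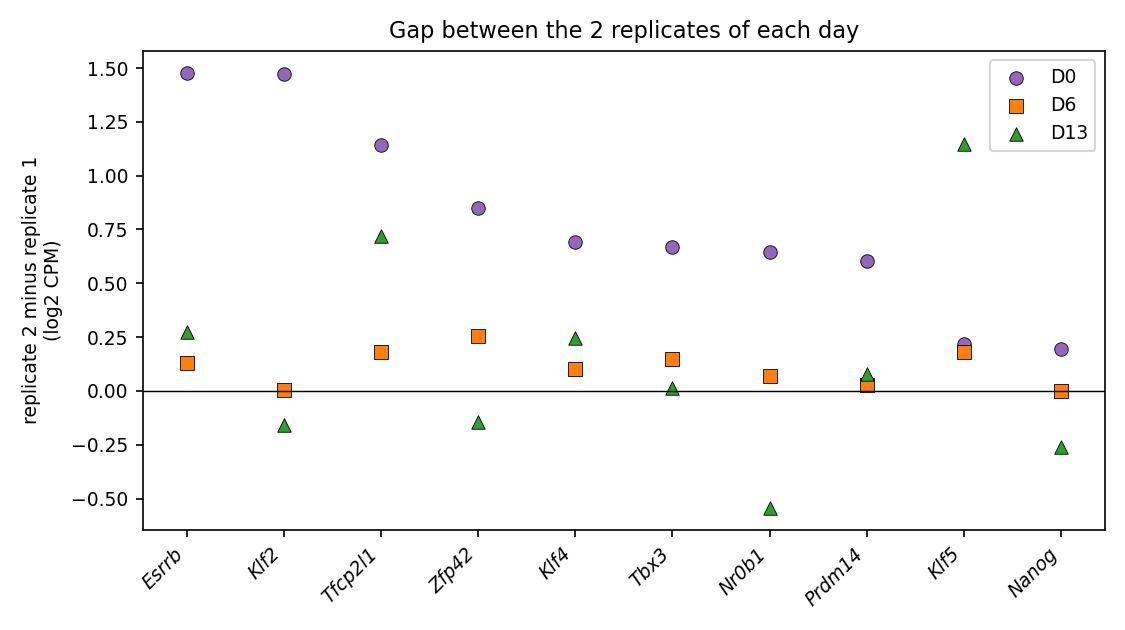
Replicate 2 minus replicate 1 in log2 CPM for each factor, with circles for D0, squares for D6 and triangles for D13. All circles lie above zero, from 0.20 to 1.48, while the squares stay within 0.26 of it.

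Other genes moved with this gap at D0. Among other naive-state genes 10 of 12 were higher in replicate 2 (median 0.82), as were 10 of 11 Krüppel-like relatives (median 0.76), whereas 3 of 10 formative and primed genes (median -0.48) and 3 of 10 genes of MEK-ERK output (median -0.66) were. All 6 measured markers of primitive endoderm, an extraembryonic lineage, were higher in replicate 2 (median 0.84), and their summed level was 154 and 241.5 CPM in the D0 samples, against 90.5 to 113.8 at D6 and 103.3 to 132.7 at D13. The sum does not describe its members: *Col4a1*, a collagen of basement membranes, went from 81.7 and 125.5 CPM at D0 to 2.08 and 3.07 at D13, while *Lama1*, a laminin, was at 54.3 and 94.5 and then at 95.4 and 122.7. *Dab2* and *Col4a1* fell from D0 to D6, the other 4 did not pass, and the median log2 change of the list was 0.12. All 4 measured fibroblast markers were lower in replicate 2, with sums of 12.3 to 32.2 CPM at D0, 5.66 to 5.78 at D6 and 6.65 to 8.83 at D13. The 5 measured trophoblast markers summed to 134.8 to 141.3 CPM at D0, 141.4 to 150.2 at D6 and 107.3 to 115.1 at D13. Their sum also hid opposite changes, as *Krt8*, a keratin, fell by 2.69 by D6 (adjusted p = 0.000216) and *Tead4* rose by 2.18 (adjusted p = 0.00254). No marker with a row was at 0 reads in a sample, while *Sox7*, *Foxa2*, *Cdx2*, *Elf5*, *Hand1*, *Col3a1*, *Dcn*, *Lum* and *Twist2* had no row. The part of these cell types in the levels of the 10 factors was not tested.

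To compare the factors with each other, levels were divided by exon length (RPKM, here CPM per kilobase of exon). In serum, *Zfp42* was the most abundant at 354.9 ± 143.8 RPKM (SD, n = 2), followed by *Klf2* at 115.4 ± 76.7, *Nanog* at 90.4 ± 8.64 and *Esrrb* at 52.6 ± 35.1. *Nr0b1* (27.8 ± 8.67), *Klf4* (16.0 ± 5.32), *Tfcp2l1* (14.7 ± 7.82) and *Klf5* (13.2 ± 1.42) came next, and *Prdm14* (3.56 ± 1.03) and *Tbx3* (2.83 ± 0.91) were last. The SDs of *Klf2*, *Nanog* and *Esrrb* overlapped, and those of *Esrrb*, *Nr0b1*, *Klf4* and *Tfcp2l1* all overlapped each other. *Klf4*, *Tfcp2l1* and *Klf5* overlapped too, as did *Prdm14* and *Tbx3*.

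At D6, *Zfp42* (377.8 ± 47.3 RPKM) and *Nanog* (362.0 ± 0.14) could not be separated by their SDs, and *Klf2* (135.4 ± 0.15) came next, with *Tfcp2l1* (126.5 ± 11.1) within its own SD of it. *Tbx3* reached 39.8 ± 2.91, above *Prdm14* and *Nr0b1*, both at 23.6, and *Klf5* at 19.3 ± 1.73 was lowest. At D13, *Nanog* (233.6 ± 29.5) and *Zfp42* (202.4 ± 14.2) led with overlapping SDs, *Tfcp2l1* (126.9 ± 44.0) and *Esrrb* (94.7 ± 12.7) overlapped, and *Klf2* stood at 61.5 ± 4.71. *Prdm14* (18.8 ± 0.73), *Nr0b1* (18.5 ± 4.87) and *Klf5* (17.1 ± 9.16) overlapped at the low end. By the means alone, *Tfcp2l1* went from rank 7 to rank 3 between D0 and D13, and *Klf2* from rank 2 to rank 5.

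**Figure D4:**
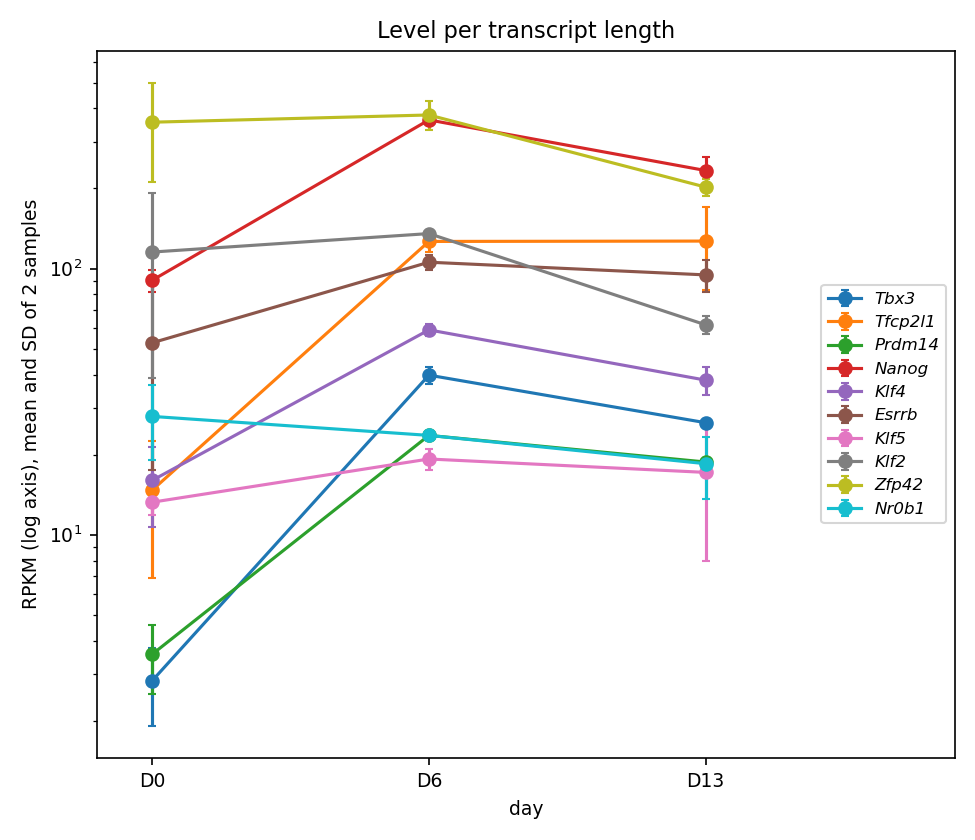
Level per length of exon (RPKM, log axis) of the 10 factors at D0, D6 and D13, as the mean and SD of 2 samples. *Tfcp2l1* goes from 14.7 at D0 to 126.9 at D13 and *Tbx3* from 2.83 to 26.4, while *Klf2* goes from 115.4 to 61.5.

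Likeness between courses was described by Pearson's r of log2 CPM over the 6 samples, which share 3 days and their libraries, so that no p is given. *Tbx3* and *Prdm14* were the closest pair (r = 0.999). *Tfcp2l1* was closest to *Prdm14* (r = 0.985), and *Nanog* and *Klf4* to *Tbx3* (r = 0.980 and 0.971). *Klf2* and *Zfp42* were closest to each other (r = 0.959), and *Nr0b1* to *Zfp42* (r = 0.845). *Esrrb* (r = 0.891) and *Klf5* (r = 0.626) had *Klf4* as their nearest member. The lowest value was -0.46, for *Tfcp2l1* and *Nr0b1*. Among 2681 other genes compared, the closest were *Meis2* for *Tbx3* and *Mitf* for *Prdm14* (both r = 0.999), *Ttc28* for *Tfcp2l1*, *Agk* for *Nanog*, *St8sia1* for *Klf4*, *Ppip5k1* for *Esrrb*, *Ccdc160* for *Klf2*, *Lnpep* for *Klf5*, *Prx* for *Zfp42* and *Lime1* for *Nr0b1*. Many genes were nearly as close to some factors. An r over 0.99 was reached by 34 of these genes for *Prdm14*, 30 for *Tbx3*, 19 for *Tfcp2l1*, 7 for *Nanog* and 6 for *Klf4*. For *Esrrb* and *Zfp42* it was reached by 1 gene each, and for *Klf2*, *Klf5* and *Nr0b1* by 0.

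The pathways that feed the factors were followed with lists of known genes. Of 10 genes of MEK-ERK output, 9 fell from D0 to D6 and 0 rose, where 10.2% and 13.7% of all features did. The median of the list was -4.47. *Spry4* and *Dusp6*, both feedback inhibitors of the pathway, fell by 7.24 (adjusted p = 0.000135) and 5.69 (adjusted p = 3.37e-05). *Egr1*, an immediate early gene, fell by 7.22 (adjusted p = 5.44e-05). From D6 to D13, 2 of the 10 rose, *Dusp4* by 3.61 (adjusted p = 0.0137) and *Fos* by 2.61 (adjusted p = 0.0215), and *Myc* fell by 2.21 (adjusted p = 0.0446). Over all features, 1.39% rose and 2.78% fell at this step. *Fos* and *Myc* were named after their values were seen.

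Of 8 genes of the β-catenin and TCF branch, 3 rose and 1 fell by D6, where 13.7% and 10.2% of all features did. The median of the list was 0.07. *Cdx1*, *Sp5* and *Axin2* rose by 5.11, 3.82 and 1.98 (limma adjusted p = 0.00102, 0.00827 and 0.00384), and *Lef1*, a partner of β-catenin, fell by 3.06 (adjusted p = 0.00197). The *Cdx1* level at D0 rests on only 32 and 16 reads. For *Sp5* the D0 replicates were far apart, at 2.87 and 0.37 CPM, against 12.6 and 17.0 at D6. *Tcf7l1*, the repressor of the network, had a difference of -0.01 (adjusted p = 0.989) at D6, and it fell by 0.62 from D0 to D13 (adjusted p = 0.0449). *Nkd1*, a further gene of the list, differed by -1.15 at D6 (limma adjusted p = 0.0746) and fell by 1.21 from D0 to D13 (adjusted p = 0.0408). Over that whole course 2 of the 8 rose and 3 fell, where 20.6% and 21.5% of all features did. *Nkd1* was named after its values were seen.

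In the LIF-STAT3 pathway, 2 of 10 genes rose and 1 fell, shares near the 13.7% and 10.2% of all features. *Socs3*, the feedback inhibitor of STAT3, rose by 1.45 (adjusted p = 0.0448) and *Bcl3*, a further STAT3 target, by 1.74 (adjusted p = 0.0334), while *Junb* fell by 0.89 (adjusted p = 0.0347). The D0 replicates of the 2 rising genes were far apart. *Socs3* had 76.5 and 26.1 CPM at D0, then 114.8 and 129.7 at D6, and *Bcl3* had 26.35 and 8.495, then 51.6 and 48.1. *Stat3* itself had a difference of 0.17 (adjusted p = 0.72).

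Of 10 measured genes of the formative and primed epiblast, all 10 fell by D6, against 10.2% of all features, with a median of -3.24. Among them *Foxp1* and *Pou3f1* fell by 6.52 and 6.32 (adjusted p = 8.98e-06 and 0.000177), *Dnmt3b*, a de novo DNA methyltransferase, by 3.37 (adjusted p = 0.000157), and *Otx2* by 2.26 (adjusted p = 0.00125). *Fgf5* and *Wnt8a* had no row. Of 12 other naive-state genes, 8 rose and 1 fell, where 13.7% and 10.2% of all features did, with a median of 1.24. The largest rises of this list were *Jam2* at 2.08 (adjusted p = 0.00104) and *Tcl1*, a coactivator of AKT, at 1.59 (adjusted p = 0.0306). *Manba* was the gene that fell, by 1.25 (adjusted p = 0.0453). *Dppa3* (Stella), a maternal factor that protects DNA methylation in the zygote, differed by 1.31 at D6 (adjusted p = 0.0592) and was 2.94 above D0 at D13 (adjusted p = 0.000987). *Manba* and *Dppa3* were named after their values were seen.

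Among core pluripotency genes, *Utf1*, a chromatin-associated factor of ES cells, fell by 2.10 by D6 (adjusted p = 0.000969). *Pou5f1* had a difference of -0.12 (adjusted p = 0.81) and *Sox2* one of -0.33 (adjusted p = 0.323), and from D0 to D13 *Sox2* fell by 0.69 (adjusted p = 0.0312). Of 11 other Krüppel-like genes, 2 rose (*Klf15* by 1.72, adjusted p = 0.0105, and *Klf8* by 1.57, adjusted p = 0.00863) and 3 fell, with *Klf12* falling most, by 3.41 (adjusted p = 0.00186). Over all features, 13.7% rose and 10.2% fell, so that 2 of 11 is near the background. Among relatives in the other families, *Tfcp2* rose by 1.21 (adjusted p = 0.00542) and *Yy1* had a difference of -0.15 (adjusted p = 0.638).

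**Figure D5:**
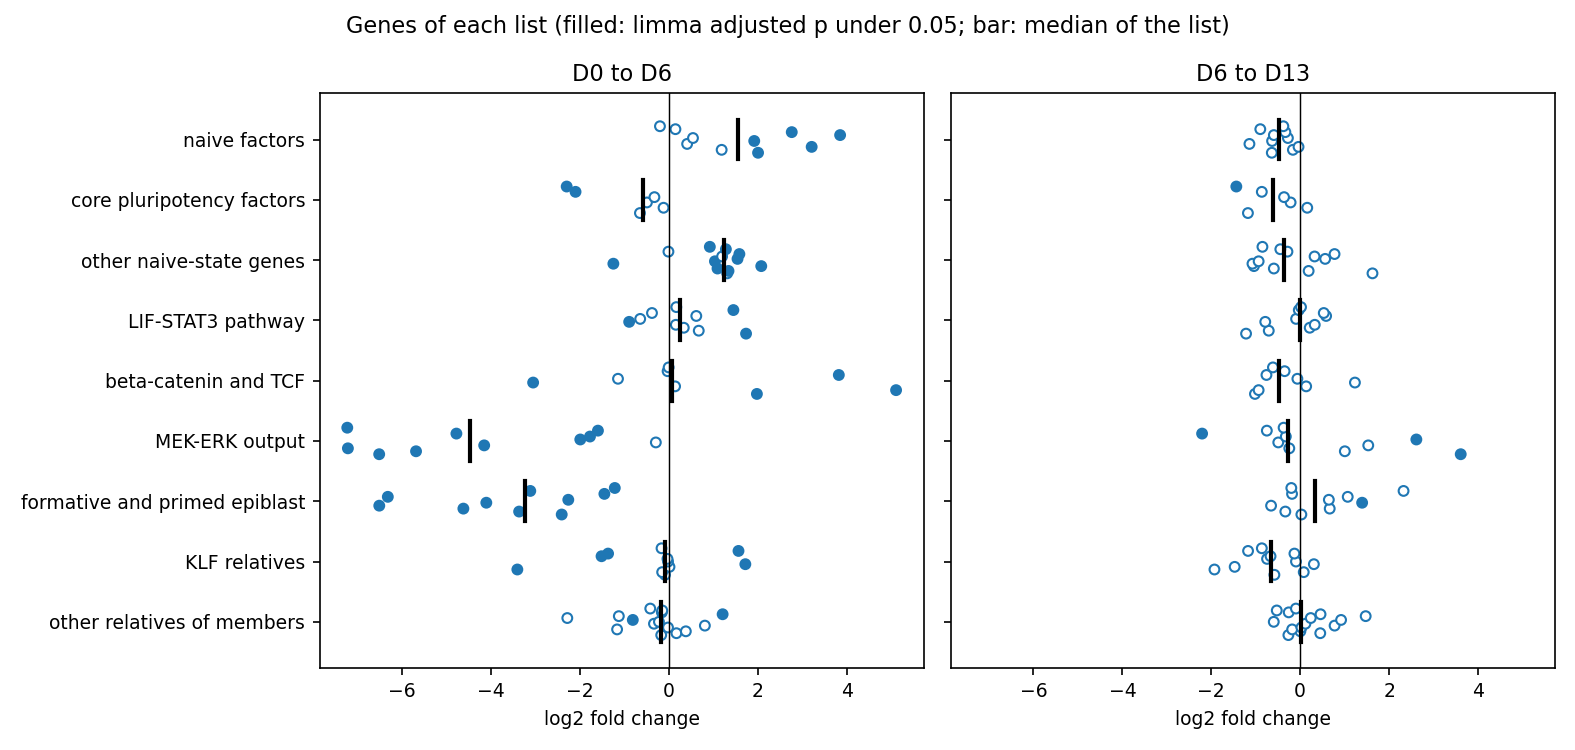
Log2 fold change of the 10 factors and of the genes of each list, at left for the step to D6 and at right for the later step. Each point is a gene, filled where the limma adjusted p was under 0.05, and bars are medians. At left the factors (median 1.55) and the other naive-state genes (1.24) lie to the right and the MEK-ERK (-4.47) and primed (-3.24) lists to the left, and at right few points are filled.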

How the data were processed

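RNA-seq was analysed in 6 samples of J1 ES cells, grouped by the labelled day (D0, D6, D13), with 2 replicates per day that the study calls biological; p-values measure only the spread between these samples. For genes, the authors mapped reads onto mm10 with TopHat2 2.0.6 and counted them over RefSeq exons with HTSeq 0.6.1. Transposon families were mapped with Bowtie 1.0.0, and both tables were combined. The authors normalized by TMM and deposited log2 CPM from voom, without weights. Gene values were (reads + 0.5) times a constant per sample: 100% gave whole reads within 0.01, and totals were 73230745 to 83688345. A gene with 3 reads has a deposited value of 0.040 to 0.049 CPM.

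The study fitted voom with weights. As the values come without them, limma 3.58.1 (R 4.3.3) was fitted on the log2 CPM of 12928 features with day means and a mean-variance trend, without a filter, and adjusted by Benjamini-Hochberg over all features. Tables and plots were made with Python 3.11.15, numpy 2.4.6, pandas 2.3.3 and matplotlib 3.10.9. The fit was tested on simulated data. Exon lengths came from GENCODE M21. RPKM here is CPM per kilobase of merged exon, while the authors counted on RefSeq.

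The 10 factors and all lists were chosen with earlier results of these data known. All 10 were named with their values. From each list, genes called in any comparison were named in order of their D0 to D6 change, at most 4 a list, beside genes named whatever they showed, such as *Pou5f1*, *Stat3* and *Tcf7l1*. The closest gene of each factor needed a mean of at least 3 log2 CPM and day means that span at least 1. No gene name in the files holds a capital G, so the lists hold only names without one. Alternatives were voom weights on the recovered reads, no trend, at least 10 reads in 2 samples, only the days compared, a replicate block, median centring, each sample left out, a 2-fold minimum, an adjusted p under 0.01 and CPM for the shares kept. Single transposon copies and DNA methylation were not analysed here, and counts over the core pluripotency list and over relatives outside the Krüppel-like family are not reported here.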

Additional observations from a re-analysis of the deposited data

How the results depend on the processing

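With 2 samples per day, an SD rests on 2 values and a missed threshold does not show that a level held. Of the log2 fold changes recomputed, 437 stayed on the same side of the threshold in the same direction, 14 newly passed, 8 no longer passed and 11 changed sign, none of them past the threshold in either fit. Median centring turned *Tfcp2l1* from D6 to D13 to 0.021. The other sign changes came from leaving out a sample: the ranges were -0.33 to 1.15 (*Klf2*), -0.28 to 0.57 (*Zfp42*) and -0.52 to 0.12 (*Nr0b1*) for D0 to D6, -0.40 to 0.32 (*Tfcp2l1*) and -0.85 to 0.30 (*Klf5*) for D6 to D13, -1.47 to 0.0042 (*Klf2*) and -0.31 to 0.84 (*Klf5*) for D0 to D13, and -0.073 to 0.25 (*Nr0b1*) for D6 against the mean of D0 and D13. The D0 replicates decided *Esrrb*, *Klf2* and *Zfp42*. The number of factors lower at D13 than at D6 was 0, and 1 (*Klf2*) in a fit of only the days compared. The number above D0 by D13 was 5 with a 2-fold minimum, against 3 at 4-fold. Whether the replicate numbers pair the samples across days is not known, since no label gives a shared origin. The difference between replicates correlated at -0.13 (D0 and D6), 0.14 (D0 and D13) and 0.33 (D6 and D13) over genes. With the replicate block, the number below D0 at D13 was 1 (*Zfp42*, adjusted p = 0.0461), and *Esrrb* passed from D0 to D6 (adjusted p = 0.0138) and from D0 to D13 (adjusted p = 0.0191). With each sample left out in turn, the counts ranged from 3 to 5 (up by over 4-fold, D0 to D6), 5 to 7 (up, D0 to D6), 0 to 1 (down, D6 to D13), 5 to 6 (up, D0 to D13), 0 to 2 (down, D0 to D13) and 1 to 7 (D6 above the mean of D0 and D13). The count up from D6 to D13 stayed at 0, and that up by over 4-fold from D0 to D13 at 3. Leaving out a sample of a day leaves its other sample alone, which is then assumed to vary like the other days. Voom weights, a filter on reads, no trend and median centring moved no count of factors by over 1.5 times.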
